A study of Mus musculus with 9 samples.

Results

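Foxo1, Foxo3 and 6 genes that FOXO factors activate when Akt is low (Klf2, Sesn3, Irs2, Ccng2, Cdkn1b and Gadd45a) were followed in mouse skin. They were found through the 15 probe sets that the array annotation assigns to one of these genes alone, out of 20380 probe sets that name 1 gene. They make up 8 of the 12393 genes measured. Pools of total RNA from whole skin were hybridised to 9 Affymetrix arrays. The transgenic genotypes L60, L84 and LA had 2 arrays each and the control mice, LC, had 3. All mice were of the same mixed C57BL/DBA/FVB strain and 30 days old, and no other treatment is given. The series title names constitutively active Akt as the transgenic change. The labels do not say which form of Akt, which promoter or how many founders each line stands for, nor how many mice made up a pool. Every p-value therefore measures the spread between these pools only.

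FOXO factors are forkhead transcription factors that sit at the end of the insulin and growth factor pathway. When Akt is active it phosphorylates FOXO proteins, which are then held in the cytoplasm by 14-3-3 proteins. When Akt is low they enter the nucleus and switch on genes that slow the cell cycle, raise stress resistance and restore sensitivity to insulin. Akt thus acts on the FOXO protein, and an array measures only mRNA.

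In LA skin Klf2 rose and Sesn3 fell against LC, by 2.18 ± 0.164 and -2.42 ± 0.29 score units (difference ± SE). Both calls were lost in several alternative settings given below, and that of Sesn3 in most fits that left out 1 array. No other member passed the test against LC in any line. Irs2 had a difference from LC in LA as large as that of Klf2 (2.18 ± 0.604) but a wider spread. Foxo1 and Foxo3 themselves did not pass in any line. The probe sets of Foxo3 differed in sign against LC in every line, and those of Foxo1 in L60. The unit is a score: the deposited values of each probe set have mean 0 and SD 1 over the 9 arrays. A difference is counted in these probe set SDs and carries neither an expression level nor a fold. Members therefore cannot be ranked by abundance, and the presence of skin markers cannot be read from the scores. Means of several probe sets spread less over the arrays (SD 0.616 for Foxo1, 0.428 for Foxo3, 0.621 for Ccng2 and 0.575 for Cdkn1b). Sizes of difference are thus not comparable between genes with 1 probe set and genes with several.

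The stretches of DNA before the starts of the members whose results are read most closely are shown here, with those that hold a word FOXO factors are known to bind. They come from RefSeq sequences of GRCm38.p6, where all 8 members matched, and run 5′ to 3′ on the gene's strand. Klf2 (chr8:72318812-72319061, plus strand) and Sesn3 (chr9:14276051-14276300, plus strand) are given for the 250 bases before the start. Irs2 (chr8:11008930-11009006, minus strand) and Ccng2 (chr5:93267517-93267572, plus strand) are given around their match. Capitals mark CAAAACA or its reverse complement TGTTTTG.
Klf2: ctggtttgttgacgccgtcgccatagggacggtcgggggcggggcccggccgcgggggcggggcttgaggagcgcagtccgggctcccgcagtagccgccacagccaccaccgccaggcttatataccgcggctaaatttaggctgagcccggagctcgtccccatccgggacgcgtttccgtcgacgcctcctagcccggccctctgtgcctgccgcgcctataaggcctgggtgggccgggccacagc
Sesn3: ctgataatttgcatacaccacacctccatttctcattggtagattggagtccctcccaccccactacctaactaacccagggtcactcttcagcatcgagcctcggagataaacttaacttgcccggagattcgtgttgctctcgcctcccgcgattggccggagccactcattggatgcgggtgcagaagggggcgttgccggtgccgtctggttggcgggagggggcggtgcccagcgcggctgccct
Irs2: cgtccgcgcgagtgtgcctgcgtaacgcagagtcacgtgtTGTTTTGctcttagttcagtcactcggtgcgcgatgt
Ccng2: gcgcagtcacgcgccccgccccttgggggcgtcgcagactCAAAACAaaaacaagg

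The words searched on both strands of the 250 bases were GTAAACA, from the core of the forkhead binding site, and CAAAACA, from the insulin response sequence. No member's window held both. GTAAACA or its reverse complement stood in 3.17% of 32851 promoters and in none of the 8 members. CAAAACA stood in 5.56% of promoters and in Irs2 and Ccng2, 37 and 16 bases before the start (counted from the first base of the word). Either word stood in 8.51% of promoters. Klf2 and Sesn3, the members that passed, hold neither in this window, which covers a short part of any gene's control region. The windows of the members held 56.0% to 76.4% G and C, against a median of 52.4% over all promoters, and 11 to 34 CG pairs against a median of 6.

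Some arrays stood apart from their own group. Over all genes the scores of the L84 arrays correlated at -0.296, those of the L60 arrays at -0.0228 and those of the LA arrays at 0.229. Among the LC arrays the correlation was 0.604 between numbers 2 and 3, and 0.153 and 0.103 between number 1 and these. Probe sets for 18S ribosomal RNA scored 2.09 on L60 1, 0.339 on L84 1 and 1.13 on LC 1, and between -0.642 and -0.528 on the other 6 arrays. The median difference of all genes from LC was 0.0777 in L60, 0.0031 in L84 and 0.247 in LA.

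**Figure D1:**
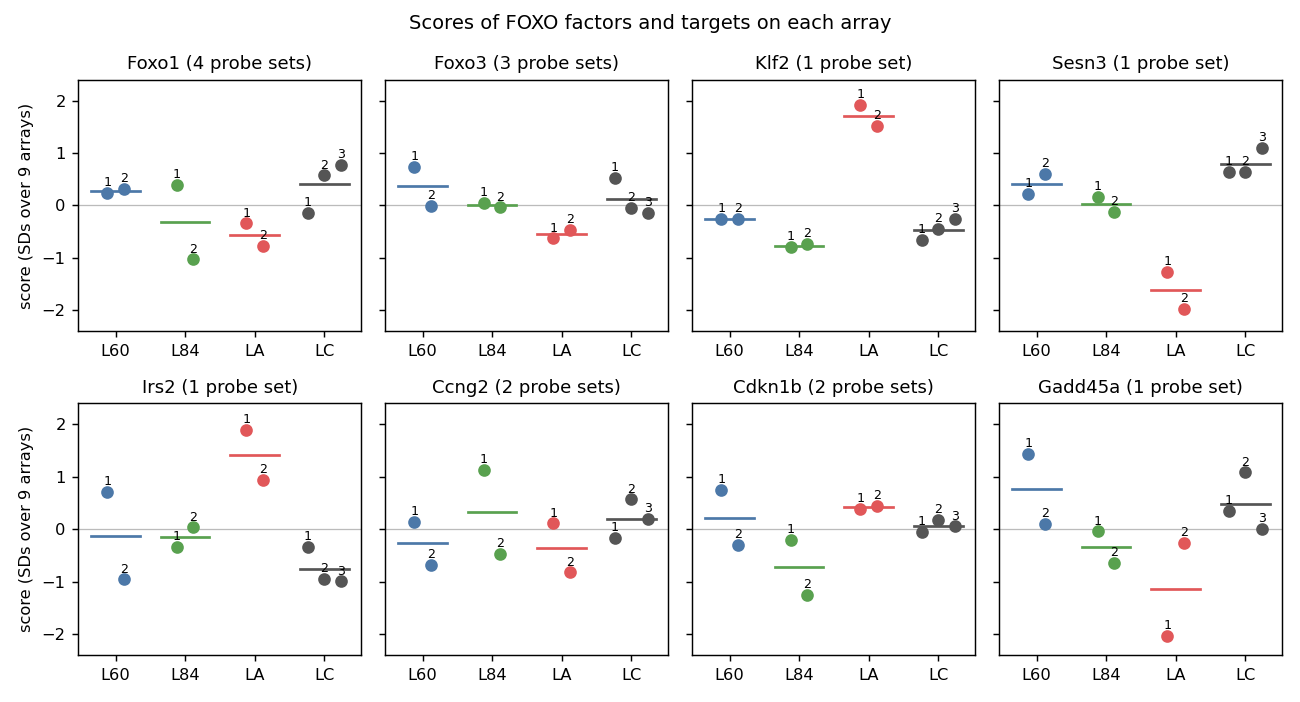
Score of each member gene on each array, in probe set SDs over the 9 arrays (vertical axis), by genotype (horizontal axis). Points are single arrays with their replicate number and bars are group means. Both LA arrays of Klf2 (1.92 and 1.52) lie above the 7 others, and both of Sesn3 (-1.27 and -1.98) below them.

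Foxo1, the FOXO factor best known for the response to insulin, was read by 4 probe sets. Their mean was 0.236 and 0.318 in L60, 0.389 and -1.03 in L84 and -0.342 and -0.778 in LA, against -0.142, 0.574 and 0.774 in LC. The LA arrays lay below all LC arrays and the L84 arrays on both sides of LC 1. The differences from LC were -0.125 ± 0.511 in L60, -0.721 ± 0.511 in L84 and -0.962 ± 0.511 in LA (limma without variance moderation, adjusted p = 1, 0.65 and 0.343). In L84 the difference rested on 1 array: it was -1.43 without L84 1 and -0.0129 without L84 2. The 4 probe sets were all lower on average than LC in L84, from -1.0 to -0.305, and in LA, from -1.59 to -0.371. In each of these lines the arrays lay below all LC arrays for only 1 of the 4. The LA arrays were far apart for 1416983_s_at (-1.44 and 0.788) and 1456529_at (0.958 and -1.46). In L60, 3 were higher (0.311, 0.479 and 0.619) and 1 was lower (-1.91). This last one, 1456529_at, had both L60 arrays (-0.762 and -1.25) below all LC arrays (0.642, 0.713 and 1.36).

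Foxo3, a FOXO factor known for stress resistance and cell death, was read by 3 probe sets. Their mean was 0.74 and -0.0057 in L60, 0.0474 and -0.0385 in L84 and -0.627 and -0.47 in LA, against 0.53, -0.0416 and -0.135 in LC. LA was again the only line whose arrays lay below all LC arrays. The differences from LC were 0.249 ± 0.304, -0.114 ± 0.304 and -0.667 ± 0.304 in L60, L84 and LA (limma without moderation, adjusted p = 1, 0.928 and 0.288). The mean hides probe sets that oppose each other. In LA 1434831_a_at and 1434832_at differed from LC by -1.48 and -1.09, with both LA arrays below all LC arrays. The third, 1450236_at, differed by 0.566 and reached its highest score, 2.08, on L84 2, where the other 2 stood at -1.0 and -1.2. Whether these probe sets read different ends or isoforms of the transcript was not tested.

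**Figure D2:**
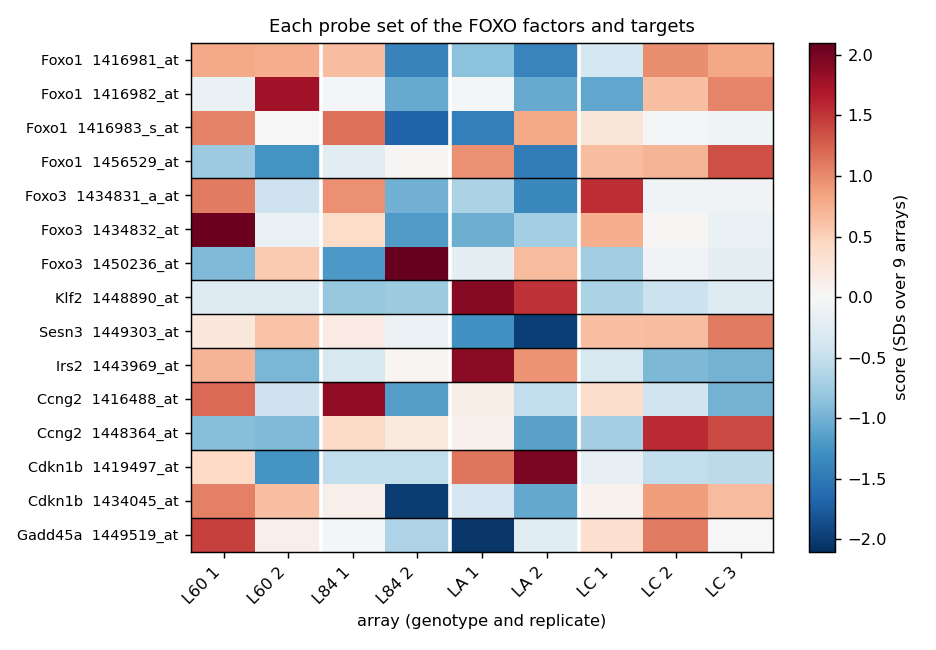
Score of each of the 15 probe sets (rows, grouped by gene) on each array (columns, by genotype), in SDs over the 9 arrays; red is high and blue is low. Klf2 and Sesn3 set LA apart from the other arrays, while the probe sets of Foxo1, Foxo3, Ccng2 and Cdkn1b differ among themselves.

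Sesn3 encodes a sestrin, a stress-induced protein that restrains the growth kinase complex mTORC1, which Akt activates. It was read by 1 probe set. Its score was 0.221 and 0.602 in L60, 0.165 and -0.126 in L84 and -1.27 and -1.98 in LA, against 0.639, 0.645 and 1.1 in LC. Each of the 6 transgenic arrays lay below each LC array, which holds for 2.98% of all genes in this direction, and the LA arrays lay far below the rest. In LA Sesn3 fell by 2.42 ± 0.29 (95% interval of the difference -3.16 to -1.67; limma without moderation, adjusted p = 0.0347). In L84 and L60 the differences were -0.775 ± 0.29 and -0.382 ± 0.29 (adjusted p = 0.392 and 1), and the mean of the 3 lines differed by -1.19 ± 0.225 (adjusted p = 0.136). The group means thus ran from LC (0.794) through L60 (0.412) and L84 (0.0195) to LA (-1.62), and no step between neighbours in this order passed (adjusted p = 1, 0.847 and 0.266). Leaving out single arrays kept the LA difference between -2.77 and -2.06, but the call held only without LA 1 (adjusted p = 0.0474) and was lost without any other array (adjusted p = 0.0528 to 0.147).

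Irs2 encodes the adaptor that links the insulin receptor to PI3 kinase, upstream of Akt, and FOXO factors are known to induce it. It scored 0.714 and -0.958 in L60, -0.338 and 0.0335 in L84 and 1.89 and 0.94 in LA, against -0.338, -0.946 and -0.996 in LC. The LA arrays were the highest of all 9, while L60 1 lay above all LC arrays and L60 2 among them. The differences from LC were 0.638 ± 0.604 in L60, 0.608 ± 0.604 in L84 and 2.18 ± 0.604 in LA (95% interval in LA 0.623 to 3.73). Adjusted over all genes none passed limma's test without moderation (adjusted p = 1, 0.755 and 0.147). In L60 the difference was -0.198 without L60 1 and 1.47 without L60 2.

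Klf2 encodes a zinc finger transcription factor known from blood vessel endothelium and resting T cells, where FOXO1 activates it. It was read by 1 probe set here. It scored -0.263 on both L60 arrays, -0.789 and -0.741 in L84 and 1.92 and 1.52 in LA, against -0.661, -0.454 and -0.263 in LC. LA stood far above every other array, and L84 lay just below LC. Klf2 rose in LA by 2.18 ± 0.164 (95% interval 1.75 to 2.6; limma without moderation, adjusted p = 0.0111), the gene with the 49th smallest p of 12393. It also rose in LA against L60, by 1.98 ± 0.18 (adjusted p = 0.0319). Against L84 the LA difference was 2.48 ± 0.18 (adjusted p = 0.0586). In L60 and L84 the differences from LC were 0.196 ± 0.164 and -0.305 ± 0.164 (adjusted p = 1 and 0.555). Over the 4 genotypes Klf2 was the member that passed the F test (adjusted p = 0.0271), which 0.734% of all genes passed. The deposited scores of LC 3 and both L60 arrays were equal, so L60 adds no spread to the error. L84 adds little (SD 0.0345, against 0.199 in LC and 0.285 in LA), so the shared error is smaller than LA and LC alone give. With the LA and LC arrays alone the difference kept its size with an SE of 0.211 (adjusted p = 0.0848). Without LC 2 it was likewise not called (2.18, adjusted p = 0.087). Leaving out any of the 8 other arrays kept the call, at 1.97 to 2.38, but the call against L60 was lost without any 1 of the 9 arrays (1.78 to 2.18, adjusted p = 0.0546 to 0.179).

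**Figure D3:**
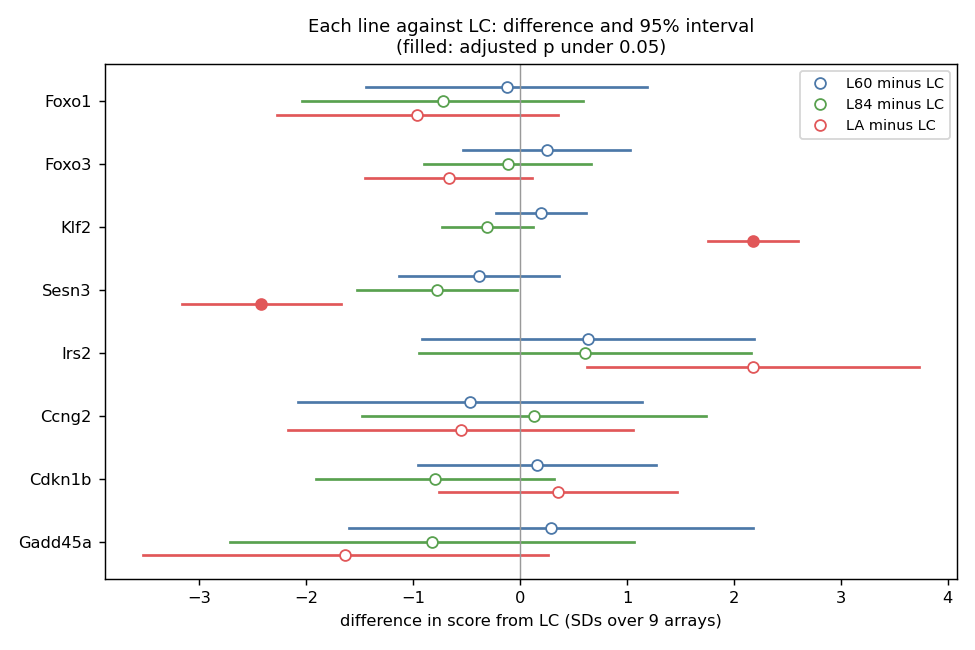
Difference of each line from LC (points) with its 95% interval (lines), for each member gene, in probe set SDs over the 9 arrays. Filled points have an adjusted p under 0.05 (limma without moderation). Klf2 in LA (2.18) and Sesn3 in LA (-2.42) are the filled points.

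Ccng2 encodes cyclin G2, an unusual cyclin linked to cell cycle arrest. The mean of its 2 probe sets was 0.145 and -0.685 in L60, 1.13 and -0.477 in L84 and 0.111 and -0.824 in LA, against -0.168, 0.569 and 0.196 in LC. Every line overlapped LC. The differences from LC were -0.469, 0.129 and -0.556 in L60, L84 and LA, each ± 0.626 (limma without moderation, adjusted p = 1, 0.967 and 0.619). In L84 the difference was -0.676 without L84 1 and 0.934 without L84 2. In each line the 2 probe sets had opposite signs against LC, 0.724 and -1.66 in L60, 0.698 and -0.439 in L84 and 0.151 and -1.26 in LA.

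Cdkn1b encodes an inhibitor of cyclin-dependent kinases that Akt can also hold back at the protein level. The mean of its 2 probe sets was 0.743 and -0.299 in L60, -0.207 and -1.25 in L84 and 0.382 and 0.451 in LA, against -0.0509, 0.181 and 0.0544 in LC. The LA arrays lay above all LC arrays and the L84 arrays below them. The differences were 0.16 ± 0.432 in L60, -0.792 ± 0.432 in L84 and 0.355 ± 0.432 in LA, and none passed limma's test without moderation (adjusted p = 1, 0.561 and 0.647). In LA the mean joined probe sets that went opposite ways. For 1419497_at the scores were 1.12 and 1.98 in LA, against -0.168, -0.521 and -0.55 in LC (LA minus LC 1.96 ± 0.552; limma without moderation, adjusted p = 0.164 over all probe sets). For 1434045_at they scored -0.353 and -1.08, against 0.0665, 0.883 and 0.659 in LC (-1.25 ± 0.696; adjusted p = 0.381). The groups did not overlap for either probe set.

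Gadd45a encodes a small protein induced by DNA damage and other stress that takes part in growth arrest and repair. It scored 1.43 and 0.107 in L60, -0.0436 and -0.641 in L84 and -2.04 and -0.262 in LA, against 0.356, 1.08 and 0.0059 in LC. The L84 and LA arrays all lay below the LC arrays, with LA 1 far below the rest. The differences from LC were 0.288, -0.824 and -1.63 in L60, L84 and LA, each ± 0.735 (limma without moderation, adjusted p = 1, 0.716 and 0.285). The LA difference was -0.743 without LA 1 and -2.52 without LA 2.

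Counted over the members, 2 of 8 passed in LA, beside 1.8% of all genes. The one higher stands beside 0.815% of all genes called higher, and the one lower beside 0.984% called lower. Over single probe sets 2 of 15 passed in LA, beside 1.15% of all probe sets. Both calls were lost with moderated variance (limma, adjusted p = 0.115 for Klf2 and Sesn3). Without the 3 arrays high in 18S the differences were 2.08 and -2.49 (adjusted p = 0.196 and 0.229). Without L84 1 and LA 2, whose scores spread most widely, they were 2.38 and -2.06 (adjusted p = 0.0807 and 0.129). In L84 and in L60 none of 8 passed with limma, moderated or not, beside 0.565% and 0% of all genes, and 1 and 0 had an unadjusted p under 0.05, beside 12.2% and 4.72%. The mean of the 3 lines against LC gave no call among the 8, beside 0.637% of all genes, and 2 had an unadjusted p under 0.05, beside 13.3%. In LA 3 had an unadjusted p under 0.05, where 20.8% of all genes did. The LA arrays did not overlap LC for 7 of 8 members, 3 higher and 4 lower, and the same held for 48.8% of all genes, 27.8% higher and 21% lower. In L84 the arrays lay below all LC arrays for 4 of 8 members (14.7% of all genes) and above them for none (13.8%). In L60 this was so for Sesn3 alone (10.8% of all genes lay below). The median difference of the 8 was 0.178 in L60, -0.513 in L84 and -0.611 in LA, beside all-gene medians of 0.0777, 0.0031 and 0.247. The 3 comparisons share the LC arrays.

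Between lines, LA against L60 gave 1 call among the 8 (Klf2, higher), beside 0.629% of all genes, 0.169% called higher. Over probe sets it was 1 of 15, beside 0.28%, and 3 members had an unadjusted p under 0.05, beside 16.2% of all genes. L84 against L60 and LA against L84 gave none, beside 0.113% and 0.0161%, with 1 and 2 members at an unadjusted p under 0.05, beside 8.03% and 10.6%, and none called with moderated variance. Of the differences that missed the threshold, Sesn3 was -2.03 ± 0.318 in LA against L60 and -1.64 ± 0.318 against L84 (limma without moderation, adjusted p = 0.097 and 0.266). In LA against L60 Foxo3 was -0.916 ± 0.333 and Gadd45a -1.92 ± 0.805 (adjusted p = 0.286 and 0.333).

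The wider FOXO pathway was read through 11 lists, of which 78 of 86 genes had a probe set of their own. None of the 78 passed limma's test without moderation in any of the 7 comparisons, and none with moderation. At an unadjusted p under 0.05 stood 0 of 78 in L60, 12 in L84 and 22 in LA, where 4.72%, 12.2% and 20.8% of all genes did. The 78 split evenly in LA, 39 above LC and 39 below, with a median difference of -0.003. All values that follow are differences from LC that did not pass.

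Of the 7 cell death targets, 6 were higher in LA (median 1.05), among them Bcl6, a transcriptional repressor (1.16), and Bbc3, the p53-regulated killer protein Puma (1.2). The 5 lymphocyte targets were all higher in LA (median 1.45), with S1pr1, the receptor that guides lymphocytes out of tissue, at 1.9 and Il7r, a receptor for T cell survival, at 1.45. Of 8 cell cycle brakes 5 were higher in LA (median 0.411), but Cdkn1a and Cdkn1c, both inhibitors of cyclin-dependent kinases, stood at -1.76 and -2.31. Among 10 oxidative stress genes 4 were higher and 6 lower in LA (median -0.485). Txnip, an inhibitor of thioredoxin, stood at 1.89. Gadd45g stood at 0.854 with arrays that overlapped LC, and at 1.91 in L60. The lowest were Prdx3 and Sod2, at -1.97 and -1.56. The LA arrays lay below all LC arrays for 4 of the 10 and above them for 2, as in 21% and 27.8% of all genes. Of 12 genes of insulin signalling and metabolism 9 were higher (median 0.393), while Pdk4, which shifts fuel use from glucose to fat, stood at -1.49 and Irs1 at 0.101. Irs1 was 2.07 in L84. Of 8 autophagy genes 6 were higher in LA (median 0.284), with the mitophagy genes Bnip3 and Pink1 at 1.93 and 1.61. This was not particular to LA: 6 of 8 were higher in L84 (median 0.947) and in L60 (median 0.577). Bnip3 and Pink1 stood at 1.54 and 1.72 in L84. There 4 of 7 cell death targets (median 0.817) and 3 of 5 lymphocyte targets (median 0.258) were higher, with Bcl6 at 1.6 and Il7r at 1.88.

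Ccnd1 and Ccnd2, the D-type cyclins that FOXO factors repress, were both lower in LA (-1.64 and -1.21; limma without moderation, adjusted p = 0.0937 and 0.172). They were lower in L84 as well (-1.52 and -1.11) and higher in L60 (0.416 and 0.463). Their arrays lay below all LC arrays in L84 and LA, as did those of 14.7% and 21% of all genes. Foxo4, the other FOXO factor on the lists with a value, differed by 1.25 in LA through LA 2 alone, which scored 2.51 against -0.252 on LA 1.

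In LA, all 7 14-3-3 genes were below LC (median -0.799), with Sfn and Ywhae at -1.8 and -1.66. All 9 cofactor and turnover genes were below LC (median -0.909), with the methyltransferase Prmt1 and the FOXO partner Ctnnb1, the gene of beta-catenin, at -2.07 and -1.91. Of 9 kinases and phosphatases upstream 6 were below LC (median -0.617), with Sgk3, a kinase related to Akt, at -1.3 and Ppp2ca, a phosphatase subunit, at -1.69. Of all 12393 genes 5444 were below LC in LA and 6180 in L84. The lists were low in L84 as well. There 6 of 7 14-3-3 genes (median -0.711), 7 of 9 cofactor and turnover genes (median -0.45) and 6 of 9 kinases and phosphatases (median -0.406) were below LC. Sfn and Ywhae stood at -1.71 and -1.22 in L84. In L60 the 3 medians were -0.0653, 0.281 and 0.133. On these 3 lists the mean score was lower on LA 2 (-1.16, -1.16 and -0.742) than on LA 1 (-0.173, -0.5 and 0.142), against -0.173 to 0.743, 0.116 to 0.605 and 0.0153 to 0.193 on the LC arrays.

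**Figure D4:**
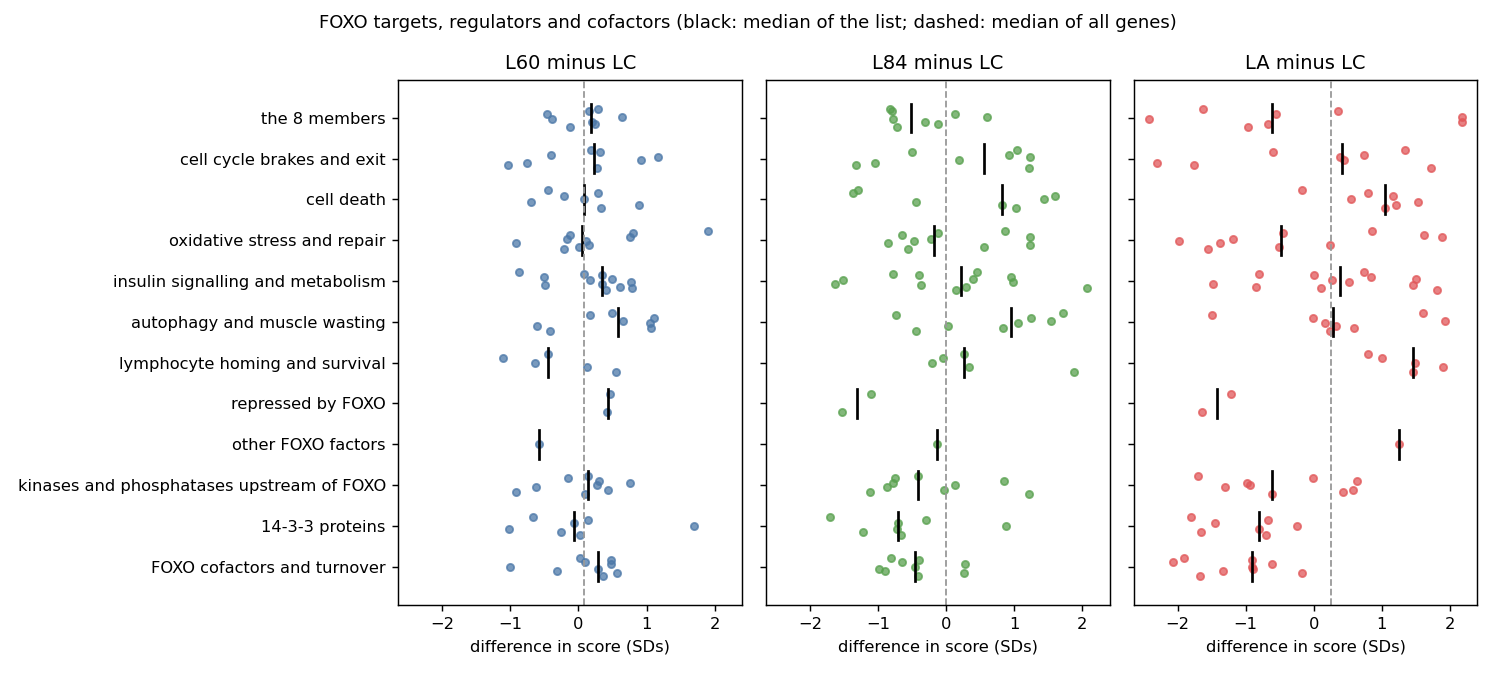
Difference in score from LC for each member and each gene of the 11 lists, in L60, L84 and LA. The horizontal axis is in probe set SDs over the 9 arrays. Points are genes, black bars list medians and dashed lines the median of all genes. In LA the lymphocyte list sits at the right (median 1.45) and the 14-3-3 and cofactor lists at the left (medians -0.799 and -0.909). In L84 the medians of these lists are 0.258, -0.711 and -0.45.

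Whole skin holds many cell types, and a gene's score in bulk RNA cannot tell fewer cells of a type from less RNA per cell. Klf2 is known from endothelium and T cells, so the markers of both are given beside it. Of 10 endothelial markers 6 were higher in LA than in LC (median 0.43), and their mean score was -0.048 to 0.454 on the LA arrays, against -0.312 to 0.0322 in LC. All 9 T and B lymphocyte markers were higher in LA (median 1.35), with a mean score of 0.725 to 1.03 on the LA arrays, against -0.784 to -0.351 in LC. In L84, where the Klf2 arrays lay below LC, the lymphocyte mean was -0.208 and 0.331, and in L60 it was -0.515 and 0.322. The endothelial mean was -0.0481 and -0.556 in L84, with 7 of 10 markers lower than in LC (median -0.369), and 0.344 and 0.128 in L60, with 7 of 10 higher (median 0.379). None of these markers passed limma's test one by one, moderated or not, though 2 endothelial and 3 lymphocyte markers had an unadjusted p under 0.05 in LA, as did 20.8% of all genes.

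Markers of other cell types also differed from LC in LA, several of them in other lines too. Only hair shaft and basal epidermal markers passed limma's test without moderation. Hair shaft keratins stood at -0.978 and -0.972 on the LA arrays, against 1.05 to 1.21 in LC. All 10 were lower in LA and 9 of them passed the test, where 0.984% of all genes were called lower. They stood at -0.89 and -0.936 in L84, as low as in LA, and at 0.169 and 0.248 in L60. Of the macrophage markers 8 of 8 were higher in LA, with means of 1.13 and 0.466 against -0.521 to -0.469 in LC. Their means were -0.756 and 1.17 in L60 and -1.29 and 0.744 in L84, so L60 2 lay above both LA arrays. The 8 fibroblast markers were all higher in LA too, with means of 0.996 and 0.631 against -0.358 to -0.0987 in LC. Their means were -0.2 and 0.338 in L60 and -1.6 and 0.621 in L84. In LA 0 macrophage and 1 fibroblast markers had an unadjusted p under 0.05 (limma without moderation), beside 20.8% of all genes. All 10 skeletal muscle markers were higher in LA and in L84, with means of 1.21 and 0.492 in LA and 1.41 and 0.201 in L84, against -0.511 to -0.351 in LC. Of 9 basal epidermal markers 8 were higher in LA (means 0.568 and 0.0139, against -0.953 to -0.612 in LC). In LA 2 of them passed, where 0.815% of all genes were called higher. In L84 8 were higher as well (means 1.39 and 0.3645) and 2 passed, beside 0.565% of all genes called in either direction. In L60 8 of the 9 were higher too (means 0.0129 and -0.135), while all 10 skeletal muscle markers were lower there (means -1.49 and -0.456). Of 6 fat markers 5 were lower in LA (means 0.286 and -0.668, against 0.376 to 0.611 in LC). In L84 5 of 6 were lower (means -0.669 and -0.667) and in L60 4 of 6 (means 0.224 and -0.0983). The part of these cell types in the scores of Klf2, Sesn3 and Irs2 was not tested, and a score cannot show which markers are absent.

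**Figure D5:**
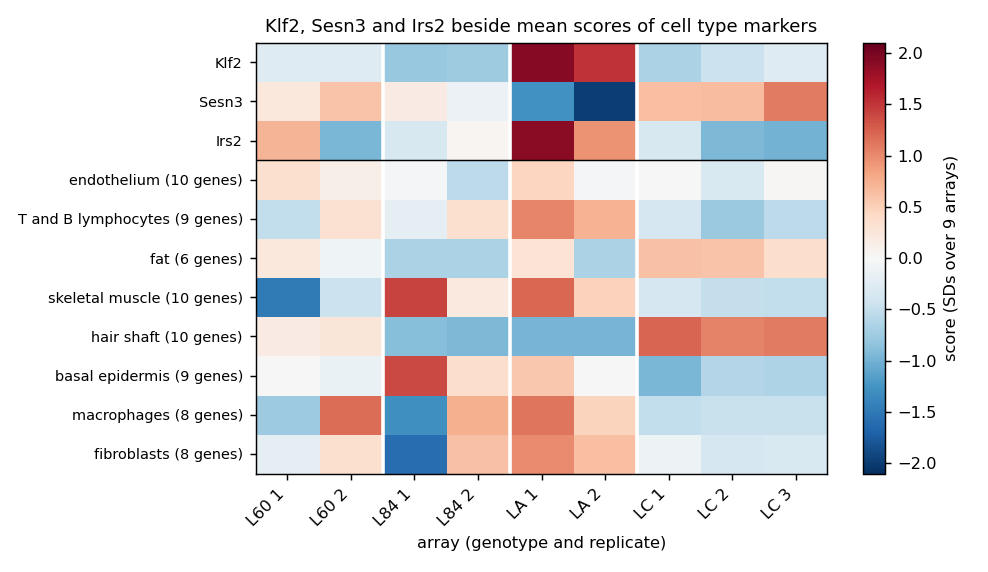
Scores of Klf2, Sesn3 and Irs2 (top rows) and mean scores of 8 marker lists (lower rows, with the number of genes) on each array. Scores are in probe set SDs over the 9 arrays. On the LA arrays Klf2 and Irs2 are high, as are the lymphocyte, macrophage, fibroblast and skeletal muscle lists. The macrophage list is high on L60 2 and L84 2 as well, the fibroblast list on L84 2 and the skeletal muscle list on L84 1. The hair shaft list is low on the LA and L84 arrays and Sesn3 on the LA arrays.

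The likeness of 2 genes was measured as the mean absolute difference of their scores over the 9 arrays. Among the members Foxo1 and Ccng2 were closest (0.388), and Sesn3 was farthest from Irs2 (1.49) and Klf2 (1.48). Of 12117 genes compared, Klf2 was nearest to Ace, the angiotensin-converting enzyme of blood vessels (0.154), then to Lhx1 (0.188) and Pcdhb9 (0.201). Sesn3 was nearest to Mrps12, a protein of the mitochondrial ribosome (0.168), Elp5 (0.17) and Nop10, a part of small nucleolar ribonucleoproteins (0.171). Irs2 had less close neighbours, Itgae, an integrin of T cells that settle in epithelia, and the amylase gene Amy1 (both 0.263), and Clasp2 (0.273). Foxo1 was nearest to Pigo, Golph3 and Ppp1r2 (0.15 to 0.152), and Foxo3 to Dclre1a, Rnf20 and Actr1a (0.105 to 0.17). Ccng2 was nearest to Tug1, Foxp1 and Nrd1 (0.131 to 0.171), Cdkn1b to Nectin3, Klf13 and Polr3f (0.192 to 0.208), and Gadd45a to Ubr7, Vipas39 and Gins1 (0.26 to 0.332). Genes with several probe sets have scores of smaller spread, which brings them closer to each other on this measure.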

How the data were processed

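RNA from whole skin (30 mg of tissue) was measured on 9 arrays, and the submitters' processing notes name RMA, with no version given. What was deposited is a score with mean 0 and SD 1 for each probe set (largest row mean 1.9e-07), ranging from -2.66 to 2.67. Neither the step that standardised them nor the scale before it is given in the sources used here. Ties between arrays occurred in 44.3% of probe sets. Of 22690 probe sets 20380 named 1 gene, 691 several and 1555 none, and 64 were controls. Probe sets of 1 gene were averaged. Names came from the platform annotation, and 20351 probe sets matched the GRCm38.p6 gene table.

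Group means were fitted over all 9 arrays (5 residual degrees of freedom) with limma 3.58.1 in R 4.3.3. Contrasts and an F test were taken without variance moderation, and p-values were adjusted by Benjamini-Hochberg over all genes (threshold 0.05). Tested on simulated data with shifts in LA, it recovered 32.8%, 92.5% and 100% of genes shifted by 5, 10 and 20 residual SDs. It also called 11 genes that had no shift. The moderated test recovered 0%. The members and lists were chosen with earlier results of these data known. Named were all members, the 3 genes most like each, and from each list the 2 with the largest mean difference of the lines and any called. Prdx3 and Sod2 were added as the lowest of the oxidative stress list in LA. Choice by size leans to genes with 1 probe set, whose scores spread more widely. The number of arrays limits the precision. Alternatives were each array left out, the replicate block, moderated variance, array medians set to 0, only the groups compared, 1 probe set per gene, every probe set and no arrays high in 18S. Leaving out the 2 arrays with the widest scores was chosen after seeing the data.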

Additional observations from a re-analysis of the deposited data

Results flagged for a closer look

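Klf2 stood out because lines differed in it. It was 1.98 ± 0.18 higher in LA than in L60 (limma without moderation, adjusted p = 0.0319), with both LA arrays above both L60 arrays. Its LA arrays lay above all LC arrays (a difference of 2.18), as in 27.8% of all genes. Its L84 arrays lay below all LC arrays (-0.31), as in 14.7%. The difference between LA and L84 was 2.48 ± 0.18 and just missed the threshold (adjusted p = 0.0586).

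Cdkn1b also had its LA arrays above all LC arrays (0.36) and its L84 arrays below them (-0.79). Of all genes 27.8% and 14.7% did so in each line, and the share that did both was not counted. The difference between LA and L84 was 1.15 ± 0.473 and did not pass limma's test without moderation (adjusted p = 0.481). Its 2 probe sets had opposite signs against LC in LA, 1.96 and -1.25.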

How the results depend on the processing

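The calls of Klf2 (2.18) and Sesn3 (-2.42) in LA against LC held with array medians set to 0. They also held with 1 probe set per gene and with every probe set on its own. Each of these genes has 1 probe set, so the last 2 settings could change only the adjustment of p, not the difference. Both differences kept their sign in every alternative run, at 1.97 to 2.38 and -2.77 to -2.06. They were lost with limma's moderated variance, with the replicate block, with only the LA and LC arrays, without the 3 arrays high in 18S and without the 2 widest arrays, and the Klf2 call against L60 was lost in the same settings. Members called in LA numbered 0 in each of these settings in place of 2, and 0 in place of 1 for LA against L60. Leaving out single arrays gave 0 to 2 in LA against LC, 0 in LA against L60 and 0 to 1 in LA against L84. Fewer residual degrees of freedom remain in the smaller fits. On simulated data the moderated test recovered 0% of shifts, and the test without moderation also called 11 genes that had no shift. Whether these values hold for the deposited scores was not tested.

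The number of genes called changed by over 1.5 times as follows. With moderated variance it was 0 in L84 (70), LA (223) and the lines' mean (79) against LC, and 0 in L84 against L60 (14), LA against L60 (78) and LA against L84 (2). With only the groups compared, which cannot be set for the mean of the lines, it was 4 in L60 (0), 19 in L84, 38 in LA, 0 in L84 against L60, 3 in LA against L60 and 0 in LA against L84. Without the arrays high in 18S it was 1 in L84, LA and the mean of the lines, 1 in L84 against L60, 2 in LA against L60 and 1 in LA against L84. Without the widest arrays it was 4 in L60, 44 in LA, 32 in the mean of the lines, 39 in L84 against L60, 16 in LA against L60 and 22 in LA against L84. Array medians set to 0 gave 7 in L84 against L60, and 1 probe set per gene or every probe set gave 0 in LA against L84. Leaving out single arrays gave 0 to 5 in L60, 5 to 129 in L84, 40 to 306 in LA, 13 to 110 in the mean of the lines, 3 to 15 in L84 against L60, 4 to 112 in LA against L60 and 0 to 131 in LA against L84.

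Same-numbered arrays of different genotypes had deviations that correlated at -0.0833 to 0.345, highest between L84 and LA. These values do not settle whether the numbers pair the pools, and the main fit did not pair them. The 3 arrays high in 18S all carry number 1, while LA 1 scored -0.625. Whether a shared run lies behind this was not tested. With the replicate block 1 gene was called in L60, 3 in L84, 1 in LA and 1 in the lines' mean against LC, 0 in L84 against L60, 1 in LA against L60 and 1 in LA against L84. Under this block Klf2 and Sesn3 in LA stood at 2.27 and -2.26 (limma without moderation, adjusted p = 0.162 and 0.235), and Foxo1 in L60 turned to 0.0608.

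Differences that were not called turned sign in these settings. With 1 probe set per gene against LC, Foxo1 in L60 was 0.311, Foxo3 in L60 -0.144, Ccng2 in L60 0.724 and in LA 0.151, and the mean of the lines was 0.524 for Ccng2 and 0.62 for Cdkn1b. Ccng2 in L84 against L60 was -0.0258. With array medians set to 0 Irs2 in L84 against L60 was 0.056. Without the arrays high in 18S, against LC, Foxo3 in L84 was 0.0496, Ccng2 in L84 -0.859, Cdkn1b in L60 -0.416 and Gadd45a in L60 -0.438. There Foxo1 in LA against L84 was 0.467, Irs2 in L84 against L60 0.992, and Ccng2 in LA 0.328 against L60 and 0.12 against L84. Without the widest arrays Foxo1 in LA against L84 was 0.686, Irs2 in L84 against L60 0.156, and Ccng2 was -0.676 in L84 against LC, -0.207 in L84 against L60, 0.38 in LA against L60 and 0.587 in LA against L84. The cause of these turns was not tested.

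Leaving out single arrays turned the sign in these ranges. Against LC they were -0.397 to 0.0608 for Foxo1 in L60, -0.124 to 0.622 for Foxo3 in L60, -0.24 to 0.0925 for Foxo3 in L84, -0.303 to 0.029 for Foxo3 in the mean of the lines and -0.198 to 1.47 for Irs2 in L60. They were -0.676 to 0.934 for Ccng2 in L84, -0.36 to 0.681 for Cdkn1b in L60, -0.267 to 0.0824 for Cdkn1b in the mean of the lines and -0.375 to 0.951 for Gadd45a in L60. For L84 against L60 they were -1.3 to 0.112 for Foxo1, -0.735 to 0.0102 for Foxo3, -0.866 to 0.806 for Irs2 and -0.207 to 1.4 for Ccng2. For LA against L60 they were -0.555 to 0.38 for Ccng2 and -0.326 to 0.715 for Cdkn1b. For LA against L84 they were -0.949 to 0.467 for Foxo1, -1.49 to 0.12 for Ccng2 and -1.7 to 0.0809 for Gadd45a. A filter on low signal needs an expression level and could not be run on scores.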
